A study of Homo sapiens with 12 samples.

Results

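The metalloproteinases, the related ADAM and ADAMTS proteases, and their TIMP inhibitors were followed in 2 BRAF-mutant melanoma cell lines, COLO858 and MMACSF, treated with the RAF inhibitor vemurafenib. Members were taken as every gene whose symbol is MMP, TIMP, ADAM, or ADAMTS followed by a number. They numbered 71 of the 23273 genes listed, with 24 MMP, 24 ADAM, 19 ADAMTS, and 4 TIMP genes. Of these, ADAM3A, ADAM5P, ADAM6, and MMP23A are annotated as pseudogenes. ADAM1 was not found in the annotation used, so whether it is a pseudogene was not determined. A member counted as measured where the mean of any group reached 1 FPKM (fragments per kilobase, a level per gene length that is scaled to the fragments mapped in the library). That held for 33 members, of which 25 were measured in both lines, 7 in COLO858 only, and 1 in MMACSF only. Of the others, 24 stayed below 1 FPKM in every group, among them MMP9 and TIMP4, and 14 were listed at 0 in every library. MMP25 lay just inside this minimum with a highest group mean of 1.24 FPKM, and TIMP4 just outside it with 0.890 FPKM.

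The study asked which transcripts accompany a slowly cycling, drug-adapted state that COLO858 cells enter and for which MMACSF cells served as control. The 12 RNA-seq libraries comprised 2 replicates each of COLO858 and MMACSF under DMSO (the solvent) and after 24 and 48 h in 0.2 μM vemurafenib. DMSO-treated cells carry no time label, so the 24 h and the 48 h libraries were set against 1 pair of DMSO libraries, and those comparisons share their controls. Both lines were grown on plates, at different plating densities and in different media. Their values were deposited in separate tables that may have been scaled separately.

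MMPs are zinc-dependent proteases that cleave extracellular matrix. They are made as inactive precursors, and are either secreted or, as membrane-type MMPs, held at the cell surface. ADAMs are membrane proteins, many of which shed the outer parts of receptors, adhesion molecules, and growth factors, whereas others lack a working catalytic site and act in cell adhesion. ADAMTS proteases are secreted and cut proteoglycans, procollagens, or von Willebrand factor. TIMPs bind the active sites of MMPs, and some also inhibit ADAMs. TIMP2 also takes part with MMP14 in the activation of MMP2 at the surface. In melanoma these proteins are known for matrix remodeling and invasion.

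All 8 melanoma markers examined (MITF, SOX10, PMEL, MLANA, TYR, TYRP1, DCT, S100B) reached 1 FPKM in at least 1 library, with summed levels of 702 to 17555 FPKM. In COLO858, however, the pigment-cell gene MLANA stayed below a group mean of 1 FPKM with and without drug, as did TYR in DMSO and at 48 h, and the markers summed to 702 to 4158 FPKM there, against 11160 to 17555 FPKM in MMACSF. The 4 immune, 3 endothelial, and 3 epithelial markers stayed below 1 FPKM in every library, and CD3E and KRT5 were listed at 0. Of the fibroblast list (COL1A1, COL1A2, DCN, LUM), 1 to 3 of 4 genes reached 1 FPKM in a group. Its sum was 8.12 to 11.04 FPKM in DMSO-treated COLO858 cells, 15.3 to 18.4 at 24 h, and 17.2 to 27.0 at 48 h, and in MMACSF 57.8 to 79.1, 45.1 to 53.4, and 20.1 to 28.9. Both are cultured melanoma lines, and which cells carry the transcripts of the fibroblast list was not tested. In bulk RNA, fewer cells with a transcript and less transcript per cell cannot be told apart. Libraries summed to 670310 to 1013038 FPKM, which is not a read depth, and depth could not be recovered. Because the replicates are described only as plated in duplicate, p-values measure the spread between these libraries, which may be technical.

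Promoters of 19 of the 33 measured members were found in the RefSeq table (GRCh38.p14). Among those not found were MMP1, MMP2, MMP19, TIMP2, ADAMTS1, ADAMTS9, ADAMTS15, and ADAMTS16, so the counts below do not cover them. Shown here, 5′ to 3′, are the 250 bases before the start of 4 genes whose change with drug differed between the lines, chosen after their values were seen. TIMP3 (chr22:32801455-32801704, plus strand), ADAM23 (chr2:206443282-206443531, plus strand), and MMP14 (chr14:22836335-22836584, plus strand) are followed by MMP8 (chr11:102724955-102725204, minus strand). Capitals mark, on either strand, the letters of the GC box (GGGCGG), the CCAAT box (CCAAT), and the TATA box (TATAAA).
TIMP3: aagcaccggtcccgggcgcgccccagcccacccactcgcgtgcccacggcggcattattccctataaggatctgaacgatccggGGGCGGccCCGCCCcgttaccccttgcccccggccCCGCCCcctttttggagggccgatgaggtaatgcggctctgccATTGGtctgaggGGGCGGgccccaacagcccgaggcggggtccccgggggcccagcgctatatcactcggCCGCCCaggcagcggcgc
ADAM23: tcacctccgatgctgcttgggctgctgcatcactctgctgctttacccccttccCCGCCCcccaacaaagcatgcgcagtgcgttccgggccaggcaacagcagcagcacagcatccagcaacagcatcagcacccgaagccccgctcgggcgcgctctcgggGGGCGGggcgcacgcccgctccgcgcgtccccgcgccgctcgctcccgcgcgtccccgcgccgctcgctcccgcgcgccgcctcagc
MMP14: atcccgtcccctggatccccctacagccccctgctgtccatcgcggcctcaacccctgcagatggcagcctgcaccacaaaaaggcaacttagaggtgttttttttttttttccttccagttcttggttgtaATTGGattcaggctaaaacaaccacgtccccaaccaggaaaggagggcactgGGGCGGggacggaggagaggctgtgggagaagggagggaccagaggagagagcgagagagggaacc
MMP8: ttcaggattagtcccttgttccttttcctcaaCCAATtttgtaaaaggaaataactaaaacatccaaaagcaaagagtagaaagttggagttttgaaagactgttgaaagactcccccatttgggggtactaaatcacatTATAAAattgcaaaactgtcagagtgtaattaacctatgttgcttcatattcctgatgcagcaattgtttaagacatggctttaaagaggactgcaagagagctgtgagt
The TIMP3 window holds 5 GC boxes and 1 CCAAT box, that of ADAM23 2 GC boxes, that of MMP14 1 GC box and 1 CCAAT box, and that of MMP8 1 TATA box and 1 CCAAT box. GC content was 72.4%, 73.6%, and 56.8% in the first 3 and 36.4% in MMP8. A GC box was found in 17 of the 19 members and in 42.6% of all 35116 promoters of this length. The median GC content was 73.6% in these members and 58% in all promoters. CCAAT was found in 6 of 19 and in 32% of all, and TATAAA in 1 of 19, MMP8, and in 10.7% of all. The AP-1 letters TGANTCA were found in 0 of 19 members and in 6.57% of all promoters, and the CRE letters TGACGTCA in 0 of 19 and in 1.65%. The 19 members had all reached 1 FPKM here, whereas the 35116 promoters were taken whatever the level of their gene. The shares and medians are therefore of unlike sets. These are letter matches in a short window and do not show binding.

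In COLO858 cells the drug was accompanied by higher TIMP2, TIMP3, MMP2, MMP14, MMP19, and ADAM23 and lower MMP1 at both times, with MMP15 higher at 48 h. MMACSF cells shared the rises of MMP2 and MMP19 at both times and of TIMP2 at 48 h, but TIMP3 was lower, and MMP8 fell by 48 h. Calls were made with limma on log2(FPKM + 1), two-sided, at a p under 0.01 after Benjamini-Hochberg adjustment over all genes tested. At 24 h in COLO858, 9 of 32 members passed, 7 higher and 2 lower, where 9.82% of all 12696 genes tested passed (4.11% higher and 5.71% lower). At 48 h 10 of 32 passed, 9 higher and 1 lower, against 9.47% of all genes (4.74% higher and 4.73% lower). The median log2 fold-change at 48 h was 0.53 over the members and -0.01 over all genes. In MMACSF 4 of 26 members passed at 24 h, 2 in each direction, where 5.83% of all 12599 genes passed (2.22% higher and 3.6% lower). At 48 h 6 of 26 passed, 4 higher and 2 lower, against 8.83% of all genes (3.42% higher and 5.41% lower). The median at 48 h was 0.30 over the members and 0.06 over all genes.

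**Figure D1:**
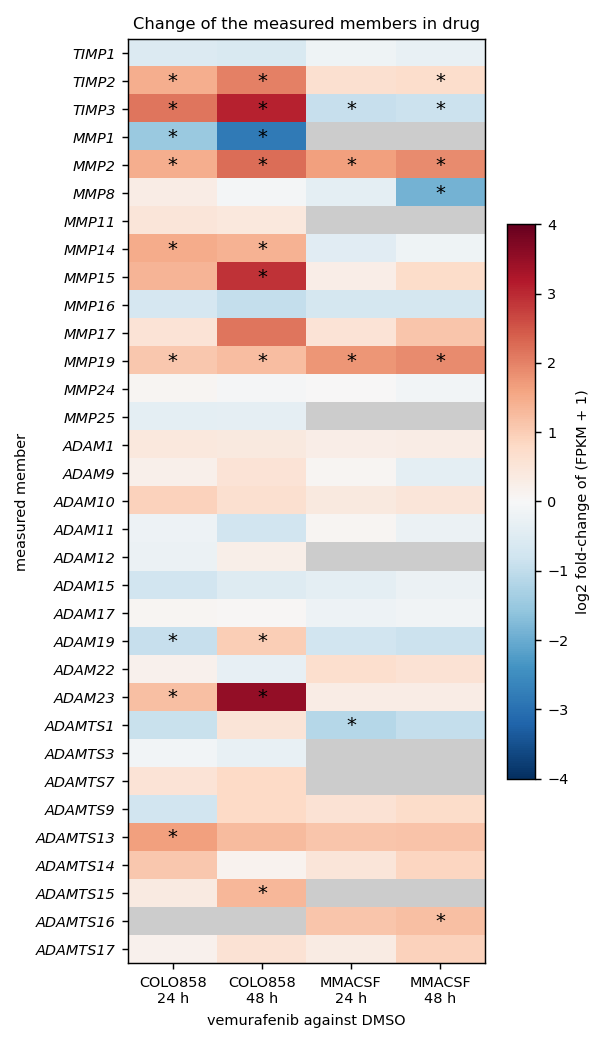
Log2 fold-changes of (FPKM + 1) of the 33 measured members (vertical axis) in vemurafenib against DMSO for each line and time (horizontal axis), with red for higher, blue for lower, gray for not tested in that line, and an asterisk for an adjusted p under 0.01. TIMP3 is red in COLO858 (3.06 at 48 h) and blue in MMACSF (-0.85), and MMP2 and MMP19 are red throughout.

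Between 24 and 48 h 4 members rose in COLO858 and 0 fell, where 1.38% of all genes passed (1.17% higher and 0.213% lower). These were ADAM19, ADAM23, ADAMTS1, and ADAMTS9. In MMACSF 0 of 26 members passed with limma between these times, where 0.222% of all genes passed (0.111% in each direction). An unadjusted p under 0.05 was found for 2 of these 26 members and for 879 of all 12599 genes. Few calls stood once a group was reduced to 1 library. Without COLO858 DMSO replicate 1 or 2, or without either 24 h replicate, 0 of the 9 members remained at 24 h. At 48 h ADAM23, TIMP2, and TIMP3 remained whichever of the 4 libraries was left out, joined by MMP1 without 48 h replicate 2. In MMACSF 0 members remained at either time whichever library was left out, and in COLO858 0 of the 4 remained between 24 and 48 h. All 47 calls of a member in a comparison kept their direction throughout. With the spread taken from the compared libraries only, 2 COLO858 calls were made at 24 h and 6 at 48 h, beside 0 and 3 for MMACSF.

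Among the inhibitors, TIMP2 and TIMP3 rose in COLO858, while in MMACSF TIMP2 rose less and TIMP3 fell. Levels are given for replicates 1 and 2 in turn, and where 3 pairs stand without a group they follow the order DMSO, 24 h, and 48 h. TIMP3, a TIMP that stays bound to matrix and also inhibits several ADAMs, lies at chr22:33197691-33259028 (GRCh37) on the plus strand, within the SYN3 gene on the other strand. In COLO858 its level was 60.0 and 63.4 FPKM under DMSO, 269 and 287 at 24 h, and 489 and 561 at 48 h. Each group lay above the one before with no overlap, and the mean at 48 h was 8.50-fold that under DMSO. The log2 fold-change was 2.15 ± 0.12 (SE), adjusted p = 8.81e-04 at 24 h, and 3.06 ± 0.12 (SE), adjusted p = 3.78e-04 at 48 h. In MMACSF TIMP3 stood at 203 and 227 FPKM under DMSO, 105 and 119 at 24 h, and 112 and 125 at 48 h. Both drug groups lay below DMSO and overlapped each other, with a log2 fold-change of -0.93 ± 0.13 (SE), adjusted p = 0.00958 at 24 h, and -0.85 ± 0.13 (SE), adjusted p = 0.00964 at 48 h.

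TIMP2 (chr17:76849059-76921469, minus strand) was the most abundant member in drug-treated cells of both lines. COLO858 libraries held 222 and 225 FPKM under DMSO, 608 and 615 at 24 h, and 909.5 and 904 at 48 h, a 4.05-fold higher mean at 48 h than under DMSO. Replicates lay close together and the groups were well apart, with a log2 fold-change of 1.45 ± 0.10 (SE), adjusted p = 0.00117 at 24 h, and 2.01 ± 0.10 (SE), adjusted p = 5.52e-04 at 48 h. MMACSF libraries held 475 and 482 FPKM, 719.9 and 768 at 24 h, and 786 and 776 at 48 h. The 3 groups did not overlap, and the 48 h change passed with 0.71 ± 0.10 (SE), adjusted p = 0.00839. At 24 h the change of 0.64 ± 0.10 (SE), adjusted p = 0.0134, did not pass. TIMP2 shares exon sequence on its own strand with CEP295NL, so part of its level is uncertain.

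TIMP1 (chrX:47441807-47446188, within SYN1 on the other strand) was the most abundant member in DMSO-treated COLO858 cells. Its level was 279 and 244 FPKM under DMSO, 178 and 182 at 24 h, and 179.8 and 165 at 48 h. Drug-treated libraries lay below DMSO, but the 48 h change of -0.59 ± 0.12 (SE), adjusted p = 0.0251, did not pass. In MMACSF the levels were 82.5 and 78.1, 70.9 and 71.8, and 66.7 and 64.3 FPKM in the same order, again without overlap with DMSO and without a call. As a sum over TIMP genes, COLO858 libraries held 562 and 533 FPKM under DMSO, 1055.5 and 1084.1 at 24 h, and 1578.3 and 1630.5 at 48 h. The MMACSF sums were 761 and 787, 896 and 959.7, and 965.0 and 965.1 FPKM.

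**Figure D2:**
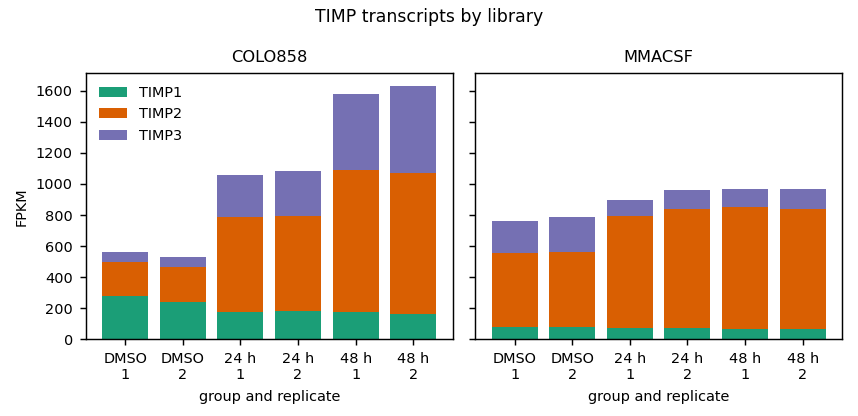
FPKM of TIMP1, TIMP2, and TIMP3 (stacked bars from 0, vertical axis) in each library of COLO858 and MMACSF by group and replicate (horizontal axis). The COLO858 bars grow from 562 and 533 FPKM under DMSO to 1578.3 and 1630.5 at 48 h (sums that include TIMP4, below 1 FPKM), with TIMP3 taking 489 and 561 FPKM of the latter.

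Of the secreted MMPs, MMP2 and MMP19 rose in both lines, MMP1 fell in COLO858, and MMP8 fell in MMACSF. MMP2, gelatinase A, degrades denatured and basement membrane collagen (chr16:55423612-55540603, plus strand). COLO858 levels were 15.8 and 12.6 FPKM under DMSO, 41.8 and 38.1 at 24 h, and 73.6 and 67.6 at 48 h. The 3 groups did not overlap, with a log2 fold-change of 1.44 ± 0.16 (SE), adjusted p = 0.00395 at 24 h, and 2.24 ± 0.16 (SE), adjusted p = 0.00130 at 48 h. MMACSF levels were 31.1 and 26.9 FPKM, 96.2 and 90.5 at 24 h, and 116 and 102 at 48 h, with both drug groups above DMSO. There the log2 fold-change was 1.66 ± 0.13 (SE), adjusted p = 0.00236 at 24 h, and 1.88 ± 0.13 (SE), adjusted p = 0.00119 at 48 h. The mean at 48 h was 4.98-fold that under DMSO in COLO858 and 3.77-fold in MMACSF. MMP2 also shares exon sequence on its own strand with another annotated gene, so part of its level is uncertain.

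MMP19 (chr12:56229217-56236750, minus strand) is a secreted MMP that cleaves basement membrane components. In COLO858 it rose from 0.818 and 1.16 FPKM under DMSO to 3.32 and 3.12 at 24 h and 3.72 and 3.70 at 48 h, and in MMACSF from 2.98 and 2.31 to 11.3 and 11.2 and 13.0 and 11.7. All drug-treated libraries lay above their DMSO libraries. In COLO858 the DMSO mean of 0.988 FPKM was under the minimum, which MMP19 reached there only in the drug groups. The 48 h log2 fold-change was 1.25 ± 0.15 (SE), adjusted p = 0.00541 in COLO858, and 1.88 ± 0.15 (SE), adjusted p = 0.00189 in MMACSF. At 24 h it was 1.09 ± 0.15 (SE), adjusted p = 0.00737, and 1.75 ± 0.15 (SE), adjusted p = 0.00289. Exons of MMP19 overlap TMEM198B on the other strand, and the strand setting of the counting was not stated.

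MMP1 and MMP8 are collagenases that cut fibrillar collagen, and are encoded 62.35 kb apart in the MMP cluster on chromosome 11. This cluster holds 9 MMP genes within 435.223 kb (chr11:102391239-102826461), of which MMP1 and MMP8 were measured in COLO858 and MMP8 alone in MMACSF. MMP1 (chr11:102660132-102668891, minus strand) stood at 29.9 and 36.4 FPKM in DMSO-treated COLO858 cells, 11.3 and 11.1 at 24 h, and 3.14 and 4.52 at 48 h. The groups did not overlap, and the DMSO mean was 8.66-fold that at 48 h. The log2 fold-change was -1.48 ± 0.20 (SE), adjusted p = 0.00664 at 24 h, and -2.83 ± 0.20 (SE), adjusted p = 0.00128 at 48 h. MMACSF levels were already under the minimum, with 0.531 and 0.603 FPKM under DMSO, 0.0880 and 0 at 24 h, and 0.0534 and 0 at 48 h. Exons of MMP1 overlap WTAPP1 on the other strand.

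MMP8 (chr11:102582527-102597781, minus strand) showed the converse distribution. MMACSF cells held 28.1 and 34.4 FPKM under DMSO, 19.6 and 27.7 at 24 h, and 7.13 and 8.12 at 48 h, and COLO858 cells 0.533 and 0.732, 0.874 and 1.16, and 0.308 and 0.858. In MMACSF both 48 h libraries lay below all others, with a DMSO mean 4.10-fold that at 48 h and a log2 fold-change of -1.90 ± 0.21 (SE), adjusted p = 0.00418. The 24 h libraries lay just below DMSO and did not pass. In COLO858 the 48 h libraries overlapped DMSO and the change of -0.06 turned to 0.02 without DMSO replicate 2 and to 0.19 without 48 h replicate 1. MMP11, a stromelysin measured only in COLO858, ranged from 4.10 to 8.66 FPKM over the 6 libraries and did not pass.

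**Figure D3:**
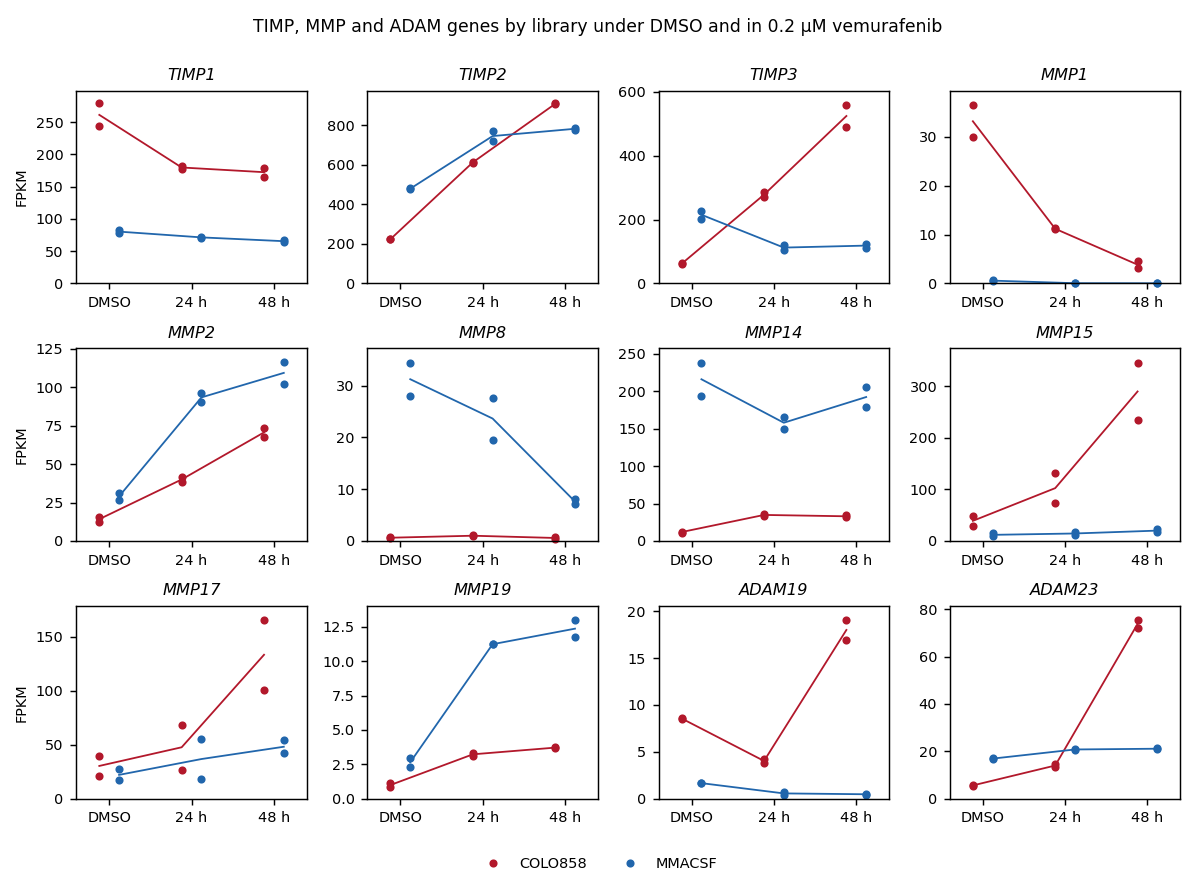
FPKM (vertical axes from 0, a scale per gene) of 12 members by group (horizontal axes) in COLO858 (red) and MMACSF (blue), with a point per library and lines through group means. In COLO858 TIMP3 climbs to 489 and 561 FPKM and ADAM23 to 75.4 and 72.1 FPKM at 48 h, while in MMACSF TIMP3 drops to 112 and 125 FPKM and MMP8 to 7.13 and 8.12 FPKM.

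Membrane-type MMPs differed in level and in response. MMP14, or MT1-MMP, activates pro-MMP2 and cleaves collagen at the surface (chr14:23305769-23318250, plus strand). Its levels in COLO858 were 12.6 and 11.2 FPKM under DMSO, 36.4 and 33.2 at 24 h, and 34.1 and 31.8 at 48 h. Both drug groups lay above DMSO and overlapped each other, with a log2 fold-change of 1.47 ± 0.14 (SE), adjusted p = 0.00273 at 24 h, and 1.39 ± 0.14 (SE), adjusted p = 0.00325 at 48 h. MMACSF libraries held 238 and 194 FPKM under DMSO, 166 and 149.7 at 24 h, and 205 and 179 at 48 h. The 24 h libraries lay below DMSO and the 48 h libraries overlapped it, and neither change passed. MMP14 made up 65.3% and 63.8% of the summed MMP level in DMSO-treated MMACSF libraries, and 7.53% and 8.50% in those of COLO858.

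MMP15, or MT2-MMP (chr16:58059658-58080805, plus strand), had the highest level of any protease gene among the members in COLO858 at 48 h. Libraries held 49.3 and 28.9 FPKM under DMSO, 131 and 74.2 at 24 h, and 346 and 235 at 48 h. Replicate 1 exceeded replicate 2 in each group, and the groups nevertheless did not overlap. The log2 fold-change was 2.88 ± 0.39 (SE), adjusted p = 0.00755 at 48 h, a 7.42-fold higher mean. This call was lost with median-ratio rescaling, with no expression minimum, with the spread of the compared libraries only, and without any 1 of the 4 libraries (adjusted p = 0.0285 to 0.0485 with a library left out). In MMACSF the levels were 14.7 and 9.09 FPKM, 18.4 and 10.7 at 24 h, and 23.2 and 17.1 at 48 h, with only the 48 h libraries above DMSO and no call. MMP15 made up 29.3% and 21.9% of the summed MMP level in DMSO-treated COLO858 libraries and 53.9% and 51.0% at 48 h.

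MMP17, or MT4-MMP, is held by a glycolipid anchor. In COLO858 its levels were 39.4 and 21.0 FPKM under DMSO, 68.4 and 26.6 at 24 h, and 166 and 101 at 48 h, and in MMACSF 27.0 and 16.9, 54.9 and 18.3, and 53.8 and 42.2. Only the 48 h libraries lay wholly above DMSO, replicate 1 exceeded replicate 2 in all groups, and the COLO858 change of 2.13 ± 0.55 (SE), adjusted p = 0.0429, did not pass. MMP16, or MT3-MMP, was lower in drug in both lines without passing. COLO858 levels were 7.05 and 10.7, 4.57 and 5.79, and 3.45 and 4.68 FPKM, and those of MMACSF 1.31 and 1.34, 0.600 and 0.262, and 0.331 and 0.506. At 48 h the changes were -0.95 ± 0.25 (SE), adjusted p = 0.0466, in COLO858 and -0.72 ± 0.19 (SE), adjusted p = 0.0440, in MMACSF, with no overlap with DMSO. MMP24 stayed between 3.54 and 4.38 FPKM in COLO858 and between 17.0 and 20.6 in MMACSF, and MMP25 between 0.447 and 1.40 in COLO858. Neither passed.

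Of the 6 catalytic ADAMs given by library, only ADAM19 passed. ADAM10 and ADAM17 are the main sheddases of Notch, adhesion molecules, and EGF receptor ligands. ADAM10 levels in COLO858 were 24.8 and 33.7 FPKM under DMSO, 49.7 and 63.6 at 24 h, and 40.8 and 50.8 at 48 h, above DMSO at both times. The 24 h change of 0.94 ± 0.22 (SE), adjusted p = 0.0354, did not pass. In MMACSF ADAM10 held 53.1 and 69.2, 70.7 and 91.1, and 75.6 and 96.0 FPKM, likewise above DMSO without a call. ADAM17 overlapped DMSO at both times in both lines, with 9.35 and 13.1, 10.5 and 13.2, and 9.45 and 13.7 FPKM in COLO858. Its MMACSF levels were 6.37 and 9.15, 6.17 and 6.86, and 5.89 and 8.09 FPKM.

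ADAM9, a broadly expressed sheddase, showed 44.2 and 63.5 FPKM under DMSO, 52.3 and 72.8 at 24 h, and 67.9 and 88.5 at 48 h in COLO858. In MMACSF it held 27.1 and 36.2, 30.1 and 35.9, and 21.7 and 25.9 FPKM. At 48 h it lay above DMSO in COLO858 and below it in MMACSF, and passed in neither. ADAM15, which carries an integrin-binding motif, was lower in drug in COLO858, with 46.0 and 37.9, 25.5 and 22.4, and 31.5 and 26.0 FPKM. Its 24 h change there was -0.78 ± 0.17 (SE), adjusted p = 0.0289, and in MMACSF the levels were 24.8 and 22.9, 18.1 and 17.7, and 20.2 and 19.7 FPKM. All drug-treated libraries lay below DMSO in both lines, and no change passed. ADAM15 shares exon sequence on its own strand with DCST1, so part of its level is uncertain. ADAM12 was measured only in COLO858, with 2.66 and 3.15, 2.44 and 2.18, and 3.84 and 3.37 FPKM, below DMSO at 24 h and above it at 48 h without passing.

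ADAM19, or meltrin beta, a sheddase of neuregulins (chr5:156822542-157002783, minus strand), fell and then rose in COLO858. Levels were 8.59 and 8.51 FPKM under DMSO, 3.82 and 4.21 at 24 h, and 17.0 and 19.0 at 48 h. The 24 h libraries lay below and the 48 h libraries above DMSO, with a log2 fold-change of -0.93 ± 0.14 (SE), adjusted p = 0.00971 at 24 h, and 0.99 ± 0.14 (SE), adjusted p = 0.00837 at 48 h. From 24 to 48 h the change was 1.92 ± 0.14 (SE), adjusted p = 0.00519. In MMACSF it stood at 1.68 and 1.61 FPKM, 0.368 and 0.732 at 24 h, and 0.537 and 0.380 at 48 h. Both drug groups lay below DMSO there, with a 48 h change of -0.86 ± 0.18 (SE), adjusted p = 0.0248, that did not pass. Exons of ADAM19 overlap CYFIP2 on the other strand.

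Among the ADAMs without protease activity, ADAM23 had the largest log2 fold-change at 48 h of any member tested in COLO858, although not at 24 h. ADAM23 is a neural adhesion protein that binds the secreted LGI proteins (chr2:207308256-207485851, plus strand). COLO858 libraries held 5.45 and 5.64 FPKM under DMSO, 13.3 and 14.6 at 24 h, and 75.4 and 72.1 at 48 h, a 13.3-fold higher mean at 48 h. The 3 groups were far apart relative to their replicates, with a log2 fold-change of 1.19 ± 0.13 (SE), adjusted p = 0.00389 at 24 h, and 3.51 ± 0.13 (SE), adjusted p = 3.05e-04 at 48 h. Most of that change came after 24 h (2.32 ± 0.13 (SE), adjusted p = 0.00297). By rise at 48 h ADAM23 stood 59th of the 12696 genes tested. MMACSF libraries held 16.8 and 17.0 FPKM, 21.1 and 20.4 at 24 h, and 21.3 and 20.8 at 48 h. Both drug groups lay above DMSO there, and neither change passed.

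ADAM22, the closely related LGI receptor, held 4.57 and 6.94, 5.93 and 7.25, and 3.92 and 4.73 FPKM in COLO858, overlapping DMSO at both times. In MMACSF it held 1.80 and 2.60, 3.39 and 4.74, and 3.22 and 4.27 FPKM, above DMSO at both times without a call. ADAM11, also without protease activity, ranged from 2.79 to 6.44 FPKM in COLO858, where the 48 h change of -0.78 ± 0.16 (SE), adjusted p = 0.0217, did not pass. ADAM1, which was not placed in the annotation used for coordinates, stayed between 0.793 and 2.18 FPKM over both lines and did not pass.

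The ADAMTS genes were low, with no library above 12.6 FPKM, and changed over time in different ways. ADAMTS1, which cleaves the proteoglycans aggrecan and versican (chr21:28208074-28217728, minus strand), held 3.85 and 4.12 FPKM under DMSO in COLO858, 1.58 and 1.83 at 24 h, and 5.88 and 6.33 at 48 h. It lay below DMSO at 24 h and above it at 48 h, and the change from 24 to 48 h passed with 1.39 ± 0.14 (SE), adjusted p = 0.00941. In MMACSF it held 6.82 and 7.32 FPKM, 2.39 and 2.89 at 24 h, and 3.48 and 2.85 at 48 h. Both drug groups lay below DMSO, and the 24 h change passed with -1.15 ± 0.16 (SE), adjusted p = 0.00997. ADAMTS9, another versican-cleaving member (chr3:64501330-64673676, minus strand), lay in the same order in COLO858, with 2.47 and 2.70, 1.02 and 1.20, and 5.29 and 5.19 FPKM. Its change from 24 to 48 h was 1.56 ± 0.14 (SE), adjusted p = 0.00733, and in MMACSF it held 2.45 and 2.01, 3.15 and 4.66, and 3.91 and 4.72 FPKM without a call. Exons of ADAMTS9 overlap ADAMTS9-AS1 on the other strand.

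ADAMTS13, which cleaves von Willebrand factor (chr9:136279478-136324524, plus strand), was above DMSO in every drug-treated library. COLO858 held 1.71 and 1.52 FPKM under DMSO, 8.35 and 6.10 at 24 h, and 6.07 and 4.62 at 48 h, and MMACSF 5.25 and 3.77, 12.6 and 9.00, and 11.7 and 10.4. The COLO858 change at 24 h passed with 1.64 ± 0.21 (SE), adjusted p = 0.00571. The 48 h changes of 1.27 ± 0.21 (SE), adjusted p = 0.0120 in COLO858, and 1.14 ± 0.22 (SE), adjusted p = 0.0191 in MMACSF, did not. VWF itself stayed below 1 FPKM in every library.

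ADAMTS15 and ADAMTS16 were each near 0 in 1 line. ADAMTS15 (chr11:130318540-130346540, plus strand), a proteoglycan-cleaving member, stood at 0.0792 and 0.0880 FPKM in DMSO-treated COLO858 cells, 0.413 and 0.391 at 24 h, and 1.78 and 1.63 at 48 h. The groups did not overlap, and the 48 h change was 1.32 ± 0.13 (SE), adjusted p = 0.00294. ADAMTS15 reached the minimum of 1 FPKM only in the 48 h group, so it was tested only through the group in which it was called higher. In MMACSF its 6 libraries held 0 to 0.202 FPKM. ADAMTS16 (chr5:5140443-5320417, plus strand) was at 0.378 and 0.720 FPKM in DMSO-treated MMACSF cells, 2.10 and 2.55 at 24 h, and 2.47 and 2.68 at 48 h, with both drug groups above DMSO. The 48 h change passed with 1.21 ± 0.18 (SE), adjusted p = 0.00938, a call lost with 0.1 FPKM in place of 1 as pseudocount, with no minimum, and with the spread of the compared libraries only. In MMACSF ADAMTS16 likewise reached the minimum only in the drug groups. COLO858 held 0.0127 to 0.293 FPKM of it.

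The other measured ADAMTS genes did not pass in any comparison. ADAMTS14, a procollagen N-proteinase, reached 1.69 and 1.02 FPKM at 24 h in COLO858 against 0.128 and 0.0952 under DMSO and 0.290 and 0.173 at 48 h. In MMACSF it held 0.171 and 0.187, 0.646 and 0.682, and 1.05 and 1.20 FPKM. ADAMTS17 lay above DMSO in all drug-treated libraries of both lines and reached at most 5.77 FPKM. ADAMTS3, another procollagen N-proteinase, and ADAMTS7 were measured only in COLO858, between 1.00 and 1.89 and between 1.91 and 6.13 FPKM.

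**Figure D4:**
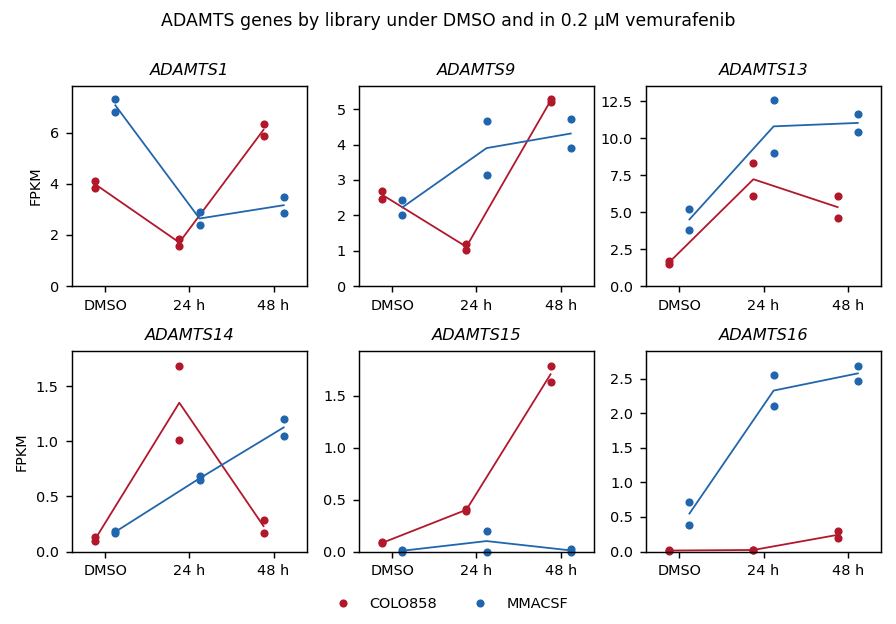
FPKM (vertical axes from 0, a scale per gene) of 6 ADAMTS genes by group (horizontal axes) in COLO858 (red) and MMACSF (blue), with a point per library and lines through group means. ADAMTS1 and ADAMTS9 have their lowest COLO858 values at 24 h (1.58 and 1.83 FPKM for ADAMTS1, 1.02 and 1.20 for ADAMTS9) and their highest at 48 h (5.88 and 6.33, 5.29 and 5.19).

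Whether the lines responded differently was tested as an interaction over all 12 libraries, taking the log2 fold-change of COLO858 minus that of MMACSF. At 24 h 5 of 33 members passed, where 3.71% of the 13595 genes tested passed (1.78% higher and 1.93% lower), with TIMP3, MMP14, ADAM23, and TIMP2 higher and ADAMTS16 lower in COLO858 than in MMACSF. Of these 5, TIMP3 and MMP14 passed whichever of the 8 compared libraries was left out, ADAMTS16 only without MMACSF DMSO replicate 2, and ADAM23 and TIMP2 in no case. At 48 h 9 passed, 8 higher and 1 lower, against 7.48% of all genes (4.19% higher and 3.3% lower). The median difference at 48 h was 0.13 over the members and -0.04 over all genes. The largest was that of TIMP3, 3.92 ± 0.17 (SE), adjusted p = 5.94e-06, with opposite directions in the lines. ADAM23 followed with 3.21 ± 0.13 (SE), adjusted p = 5.94e-06, which is a rise in COLO858 beside a change that did not pass in MMACSF. TIMP2 differed by 1.31 ± 0.11 (SE), adjusted p = 1.73e-04, where both lines rose.

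MMP14 differed by 1.91 ± 0.19 (SE), adjusted p = 8.79e-04 at 24 h, and 1.56 ± 0.19 (SE), adjusted p = 0.00113 at 48 h. ADAM19 differed by 1.85 ± 0.20 (SE), adjusted p = 6.05e-04, and ADAMTS1 by 1.47 ± 0.18 (SE), adjusted p = 0.00125, both at 48 h. The MMP8 difference of 1.83 ± 0.31 (SE), adjusted p = 0.00590, set a fall in MMACSF against COLO858 libraries that held at most 1.16 FPKM. With 1 of the 8 compared libraries left out it passed only without COLO858 48 h replicate 1 (adjusted p = 0.00651, and 0.0148 to 0.0296 otherwise), whereas the other 8 members passed in all 8 cases. ADAMTS15 (1.32) and MMP1 (-2.22 ± 0.23 (SE), adjusted p = 4.69e-04) were under the minimum in MMACSF, where ADAMTS15 held at most 0.202 FPKM and MMP1 0.531 and 0.603 FPKM under DMSO and 0.0534 and 0 at 48 h. With a pseudocount of 0.1 FPKM neither of them passed, nor did MMP8, and the MMP1 difference shrank to -0.67 at 48 h and turned from -0.90 to 0.73 at 24 h. MMP2 and MMP19 did not pass at either time.

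**Figure D5:**
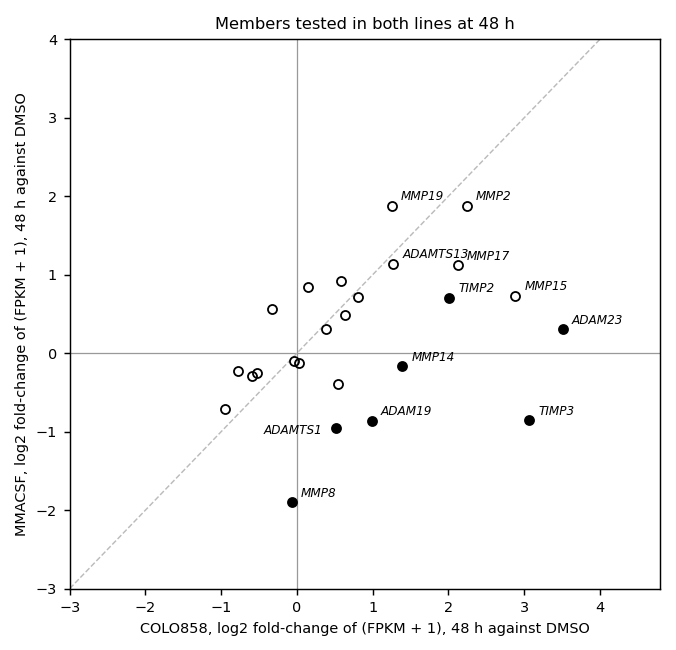
Log2 fold-change of (FPKM + 1) at 48 h against DMSO in COLO858 (horizontal axis) and MMACSF (vertical axis) for the 25 members tested in both lines, filled where the difference between the lines had an adjusted p under 0.01 (7 members) and with a dashed line of equal change. TIMP3 lies far right and below 0 (3.06 and -0.85) and ADAM23 farthest right (3.51), whereas MMP2 and MMP19 are high on both axes.

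Other genes of the same processes were counted at 48 h with the same calls. At that time 4.74% of all genes passed higher and 4.73% lower in COLO858, and 3.42% and 5.41% in MMACSF. These shares also apply to the lists in the next paragraphs. Of the partners and regulators of these proteases (activating convertases, tetraspanins of ADAM10, iRhoms of ADAM17, and others), 1 of 21 tested rose and 2 fell in COLO858, with a median of 0.23 against -0.01 for all genes. A2M, alpha-2-macroglobulin, a protease trap, rose from 1.08 and 1.06 to 7.60 and 9.12 FPKM (2.17 ± 0.18 (SE), adjusted p = 0.00196). In MMACSF A2M held 2.28 and 2.18 FPKM under DMSO, 29.1 and 31.2 at 24 h, and 2.03 and 2.55 at 48 h. The rise there by 24 h and the fall from 24 to 48 h both passed. RHBDF2, or iRhom2, which escorts ADAM17 to the surface, fell from 11.6 and 7.61 to 2.80 and 2.13 FPKM (-1.59 ± 0.24 (SE), adjusted p = 0.00970). In MMACSF 3 of 19 rose and 2 fell, with a median of 0.02 against 0.06. There PCSK5, a proprotein convertase, rose most (4.02 and 3.60 to 17.1 and 14.7 FPKM, 1.81 ± 0.15 (SE), adjusted p = 0.00184). PCSK6, of the same family, fell most (11.7 and 10.5 to 4.03 and 3.66 FPKM, -1.32 ± 0.14 (SE), adjusted p = 0.00398). TSPAN14, a tetraspanin that associates with ADAM10, fell in both lines, and is named after its values were seen.

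Of a list of membrane proteins known to be shed and the LGI partners of ADAM22 and ADAM23, 6 of 20 tested rose and 3 fell in COLO858 at 48 h, with a median of 0.31 against -0.01 for all genes. In MMACSF 3 of 14 rose and 0 fell, with a median of 0.42 against 0.06. CD44, a hyaluronan receptor cut by MMP14 and ADAM10, had the largest rise in both. It went from 6.59 and 8.25 to 61.2 and 78.0 FPKM in COLO858 (3.06 ± 0.19 (SE), adjusted p = 0.00111). In MMACSF it went from 219 and 271 to 565 and 685 FPKM (1.35 ± 0.17 (SE), adjusted p = 0.00646). TGFA, an EGF receptor ligand released by ADAM17, fell in COLO858 from 45.6 and 56.3 to 3.82 and 4.45 FPKM (-3.33 ± 0.22 (SE), adjusted p = 0.00115). The LGI genes that rose were LGI4 in COLO858 and LGI3 in MMACSF, also named after their values were seen. In COLO858 LGI3 lay above DMSO at 48 h and LGI2 below it (0.915 and 1.41 to 0.127 and 0.185 FPKM), neither with a call.

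Of the proteoglycan and link protein substrates of ADAMTS enzymes, 1 of 4 tested rose in COLO858 and 1 of 2 in MMACSF at 48 h, in both lines BCAN, brevican. BCAN went from 2.70 and 2.33 to 8.92 and 7.0 FPKM in COLO858 (1.34 ± 0.17 (SE), adjusted p = 0.00600) and from 60.9 and 45.3 to 412 and 331 in MMACSF (2.79 ± 0.23 (SE), adjusted p = 0.00189). BMP1, a procollagen C-proteinase and the only astacin tested, rose in MMACSF from 12.4 and 10.6 to 36.9 and 29.8 FPKM (1.46 ± 0.20 (SE), adjusted p = 0.00719). In COLO858 it held 13.8 and 10.4 under DMSO and 35.6 and 27.0 FPKM at 48 h without passing.

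AP-1 and ETS transcription factors, known regulators of MMP promoters, moved in both directions in COLO858, whereas in MMACSF only falls passed. In COLO858 3 of 11 rose and 6 fell at 48 h, with a median of -1.14 against -0.01 for all genes. JUN went from 0.956 and 0.643 to 45.6 and 36.0 FPKM (4.53 ± 0.22 (SE), adjusted p = 5.52e-04). ETV4, an ETS factor downstream of ERK signaling, went from 196 and 149.9 to 2.99 and 2.38 FPKM (-5.55 ± 0.20 (SE), adjusted p = 2.62e-04). In MMACSF 0 of 10 rose and 4 fell, with a median of -0.31 against 0.06. ETV4 went there from 101 and 79.4 to 1.75 and 1.28 FPKM (-5.17 ± 0.18 (SE), adjusted p = 3.45e-04), and JUN held 11.4 and 9.03 under DMSO and 27.8 and 23.7 FPKM at 48 h without a call.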

How the data were processed

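RNA of COLO858 and MMACSF cells (2 replicates in each of 6 groups, 12 libraries) was sequenced by the study from stranded mRNA libraries as single reads. The submitters' processing notes name TopHat, Cuffdiff, and hg19. Versions, annotation, and strand setting are not given in the sources used here. The authors deposited normalized values, 1 table per line, which were taken as FPKM, since group means of genes looked at equal the mean FPKM the study tabulates. How the libraries were scaled is not given. Whole reads could not be recovered from low values, so depth, and the precision it sets, is unknown. All 12 columns were used and 0 left out.

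Samples were grouped by the sample labels. Members, gene lists, and tests were chosen with earlier results of these data known. Each line was fitted with limma 3.58.1 in R 4.3.3 on log2(FPKM + 1), with 3 groups and a mean-variance trend, for genes whose mean reached 1 FPKM in any group, and the lines were compared by an interaction over 6 groups. Fold-changes are on this scale, which understates the change of low genes. Two-sided p-values were adjusted by Benjamini-Hochberg over all genes tested, with a threshold of 0.01. The procedure was tested on simulated data. Values per library are given for each member past the threshold in any comparison and for a fixed list of TIMP, MMP, and ADAM genes, and for other members ranges. For related lists the largest rise and fall at 48 h are named. Alternatives were a pseudocount of 0.1 FPKM, no minimum, median-ratio rescaling, the replicate number as a block, the spread of the compared libraries only, and leaving out each library. Coordinates are from GENCODE 44 lifted to GRCh37, the build matching hg19, and promoters from RefSeq (GRCh38.p14).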

Additional observations from a re-analysis of the deposited data

Results flagged for a closer look

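The changes with drug of 10 members differed at 1 or both times between the lines in limma's test of the difference, taken as the log2 fold-change of COLO858 minus that of MMACSF. Of the 33 members tested, 5 passed at 24 h and 9 at 48 h, where 3.71% and 7.48% of all genes passed. At 24 h the difference was 3.09 ± 0.17 (SE), adjusted p = 5.82e-05 for TIMP3, 1.91 for MMP14, 0.91 for ADAM23, 0.81 for TIMP2, and -1.10 for ADAMTS16. At 48 h it was 3.92 for TIMP3, 3.21 for ADAM23, 1.85 for ADAM19, 1.83 for MMP8, 1.56 for MMP14, 1.47 for ADAMTS1, 1.32 for ADAMTS15, 1.31 for TIMP2, and -2.22 for MMP1. TIMP3 rose in COLO858 and fell in MMACSF at both times. MMP1 and ADAMTS15 were below 1 FPKM in MMACSF, and ADAMTS16 in COLO858. With a pseudocount of 0.1 FPKM the differences of MMP1, ADAMTS15, ADAMTS16, and MMP8 did not pass. With 2 libraries per group, single libraries far from their group were not searched for.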

How the results depend on the processing

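Of the 47 calls of a member in a comparison, all kept their direction under every alternative run, while their side of the threshold depended on how the spread was estimated. With fewer libraries fitted, calls were lost. Leaving out 1 library, which assumes that the lone library varies as the others do, gave 0 members in COLO858 at 24 h, 3 to 4 at 48 h, and 0 from 24 to 48 h, 0 and 0 in MMACSF at 24 and 48 h, and 2 to 3 for the difference between lines at 24 h and 8 to 9 at 48 h. Over all genes, 0.52 to 0.725%, 0.874 to 1.09%, 0.228 to 0.307%, 0.357 to 0.556%, 0.675 to 0.992%, 1.59 to 2.12%, and 4.18 to 5.22% were called in the same fits, in this order, against 9.82%, 9.47%, 1.38%, 5.83%, 8.83%, 3.71%, and 7.48% with all libraries, so that calls fell among genes in general. With the spread of the compared libraries only, the counts were 2, 6, and 0 in COLO858, 0 and 3 in MMACSF, and 2 and 8 for the line difference at 24 and 48 h, where 3.76%, 2.99%, 0.102%, 0.468%, 2.89%, 1.53%, and 4.9% of all genes were called. With no minimum, 18234 genes were tested in COLO858. There 5 members were called at 24 h and 8 at 48 h, where 5.59% and 5.46% of all genes were called. Over all comparisons 13 of the 47 calls were lost with no minimum, against 5 with a pseudocount of 0.1 FPKM and 2 with median-ratio rescaling. The MMP8 change in COLO858 at 48 h turned from -0.06 to 0.02 without DMSO replicate 2 and 0.19 without 48 h replicate 1 (range -0.32 to 0.19 with 1 library left out), and that of MMP1 between the lines at 24 h from -0.90 to 0.73 with a pseudocount of 0.1 FPKM.

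With the replicate number as a block, 18, 21, and 12 members were called in COLO858 (24 h, 48 h, and 48 against 24 h), 11 and 12 in MMACSF, and 10 and 15 for the line difference at 24 and 48 h. Of all genes, 45%, 43.7%, 18%, 26.1%, 30.1%, 17.6%, and 25.3% were called, so that calls rose among genes in general, and no call of a member was lost. No source says what the numbers pair, and with 2 numbers per group this cannot be settled. Over the genes tested, Pearson's r between the deviations of libraries that share a number was 0.196 to 0.211 (COLO858) and 0.0628 to 0.113 (MMACSF). Depth is unknown and limits in particular members near 1 FPKM.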
